A study of Mus musculus with 12 samples.

Results

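The genes described here are 39 members of the interferon response and of the antigen presentation machinery, chosen by name from the 55385 genes of the expression table and all found there. The table came from poly(A) RNA of 12 brains of male wild-type C57/BL6J mice, 3 in each of 4 groups, bought as young adults and perfused with saline before the brain was taken. C_W mice were unstressed and received water, C_O mice were unstressed and received krill oil, MS_W mice underwent chronic unpredictable mild stress (CUMS) and received water, and MS_O mice underwent CUMS and received krill oil. Krill oil is a marine oil rich in n-3 fatty acids bound to phospholipids. The control groups received water, so that no group was given a different fat. Each library is named by its group and mouse number, and values of a group are always given in the order C_W1, C_W64, C_W70, then C_O15, C_O30, C_O72, then MS_W31, MS_W75, MS_W95, then MS_O13, MS_O46, MS_O78.

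Interferons bind receptors on the cell surface and switch on genes through transcription factors such as Stat2 and Irf9, whose complex recognises the interferon-stimulated response element (ISRE). The induced genes include sensors of viral RNA, proteins that block viral entry, translation or release, and the machinery that cuts, transports and displays peptides on major histocompatibility complex (MHC) class I. MHC class II and its chaperone Cd74 present peptides from outside the cell and are made mainly by professional antigen-presenting cells, which in the brain sit at the borders, while microglia carry little of them at rest. In bulk tissue, more cells of a type and more RNA per cell cannot be told apart.

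Levels are given as FPKM, the fragments of a transcript relative to its length in kilobases and to all mapped fragments, which can be compared between genes. The test took genes whose FPKM averaged 0.1 or more, which left 21393 genes in all and 37 of the 39 members. Nlrc5 and Ciita were below that minimum. A log2FC is the difference between group means of log2(FPKM + 1), the second group minus the first, with its standard error (SE) from 1 limma fit of the 4 groups. A member was called by an adjusted p under 0.05 (Benjamini-Hochberg over all tested genes) or, as the second rule, by the DEG criteria, an unadjusted p under 0.05 together with group mean FPKM that differ by more than 1 in log2, up or down.

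Total estimated counts were between 50912906 and 75678721 per library, and single members had 16 to 8368. A pair of libraries, C_O72 and MS_W95, was unlike the remaining 10. Across genes, log2(FPKM + 1) correlated between these 2 at Pearson's r of 0.970, at no more than 0.937 between either and the others, and at 0.959 or more among the others. The summed FPKM of 8 hindbrain markers (Hox genes and Slc6a5) was 73.6 in C_O72, 26.1 in MS_W95 and at most 0.1 in the other libraries, although each was labelled as brain and described as whole brain. Neuron, astrocyte, oligodendrocyte and microglia markers were expressed in every library. The main counts are also given for the 10 libraries that remain when this pair is left out.

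Promoters are shown first, because many members hold response elements of these pathways. The genes were chosen by name as interferon response or antigen presentation genes. A high share of such elements therefore comes with the choice and is no independent result. RefSeq windows of 300 bases, from 250 bases before to 50 after the annotated start (GRCm38.p6), were at hand for 31 members, and those without one were Usp18, Ciita, Tap2, H2-Ab1, Rtp4, Cd74, Nlrc5 and Ifi27. The ISRE was searched as GAAA, any 2 bases and GAAA again, on both strands, and was in the window of 15 of the 31 members (48.4%), against 1079 of all 27025 genes with a window (3.99%, or 3.44% of the 32851 windows). Windows with at least 2 matches, overlapping ones included, belonged to 7 members (Ifit1, Ifit3, Ifitm3, Bst2, Isg15, Irgm1 and Gbp3) and made up 0.225% of all windows. These are stretches before the start, 5′ to 3′ on the strand of the gene, with every ISRE match in capitals. They are shown because they carry the matches in different arrangements, Isg15 as an overlapping run of 3, Bst2 as an overlapping pair, Ifit3 as a spaced pair on the opposite strand, and B2m as 1.

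Isg15, chr4:156200819-156200928, minus strand: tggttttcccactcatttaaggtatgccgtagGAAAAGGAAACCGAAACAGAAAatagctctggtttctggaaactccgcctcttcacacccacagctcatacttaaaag

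Bst2, chr8:71537473-71537632, minus strand: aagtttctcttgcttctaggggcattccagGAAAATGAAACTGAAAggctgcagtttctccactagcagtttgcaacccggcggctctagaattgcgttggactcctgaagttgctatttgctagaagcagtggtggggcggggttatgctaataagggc

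Ifit3, chr19:34583369-34583528, plus strand: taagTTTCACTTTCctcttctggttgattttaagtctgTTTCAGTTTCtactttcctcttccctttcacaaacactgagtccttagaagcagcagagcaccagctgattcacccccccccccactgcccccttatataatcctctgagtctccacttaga

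B2m, chr2:122147497-122147686, plus strand: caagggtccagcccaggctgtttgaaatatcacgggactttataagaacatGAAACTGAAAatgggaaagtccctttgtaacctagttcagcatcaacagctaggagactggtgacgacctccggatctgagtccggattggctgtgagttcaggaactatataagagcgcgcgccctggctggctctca

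By role, ISRE letters were in the windows of all 4 interferon-induced GTPases, of 5 of 7 antiviral effectors, of 2 of 3 RNA sensors, of Isg15, of Stat2 among 4 signaling factors, and of B2m and H2-T23 among 4 MHC class I genes. The windows of the 4 peptide supply genes and of the 2 class II genes with an entry did not hold them. The gamma-activated sequence (GAS), searched as TTCNNNGAA, which reads the same on both strands, was found in 7 members (22.6%) and in 9.55% of genes (8.3% of windows). These were Psmb8, Irf1, Ifit2, Ifitm3, Bst2, Ifi35 and Igtp, and in Bst2 and Ifitm3 the match overlapped an ISRE match. The Y box letters GATTGG on either strand, the core of a conserved element of MHC promoters, were in 10 members (32.3%) and in 18.2% of genes (16.1% of windows), among them all 4 class I genes and both class II genes. The NF-kB site spelled by the capitals of the H2-K1 sequence, searched on both strands, was in H2-K1 and H2-D1 and in 9 of 27025 genes in all (0.0333%, or 0.0304% of windows). The stretches below show that match in H2-K1 and the Y box matches of the class II genes, again in capitals. A match is a description of letters and no evidence of binding.

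H2-K1 (NF-kB letters), chr17:34000348-34000547, minus strand: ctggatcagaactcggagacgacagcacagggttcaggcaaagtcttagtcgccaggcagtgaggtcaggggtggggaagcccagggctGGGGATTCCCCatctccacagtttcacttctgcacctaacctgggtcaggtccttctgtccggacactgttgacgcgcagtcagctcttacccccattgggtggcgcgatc

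H2-Aa (Y box), chr17:34287824-34287983, minus strand: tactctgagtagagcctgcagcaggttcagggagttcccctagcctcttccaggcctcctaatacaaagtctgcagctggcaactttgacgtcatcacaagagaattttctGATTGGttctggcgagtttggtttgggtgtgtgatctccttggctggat

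H2-Eb1 (Y box), chr17:34305707-34305866, plus strand: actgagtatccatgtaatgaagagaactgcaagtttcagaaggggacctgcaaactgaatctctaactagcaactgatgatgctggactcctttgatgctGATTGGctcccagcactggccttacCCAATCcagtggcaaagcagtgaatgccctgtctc

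**Figure D1:**
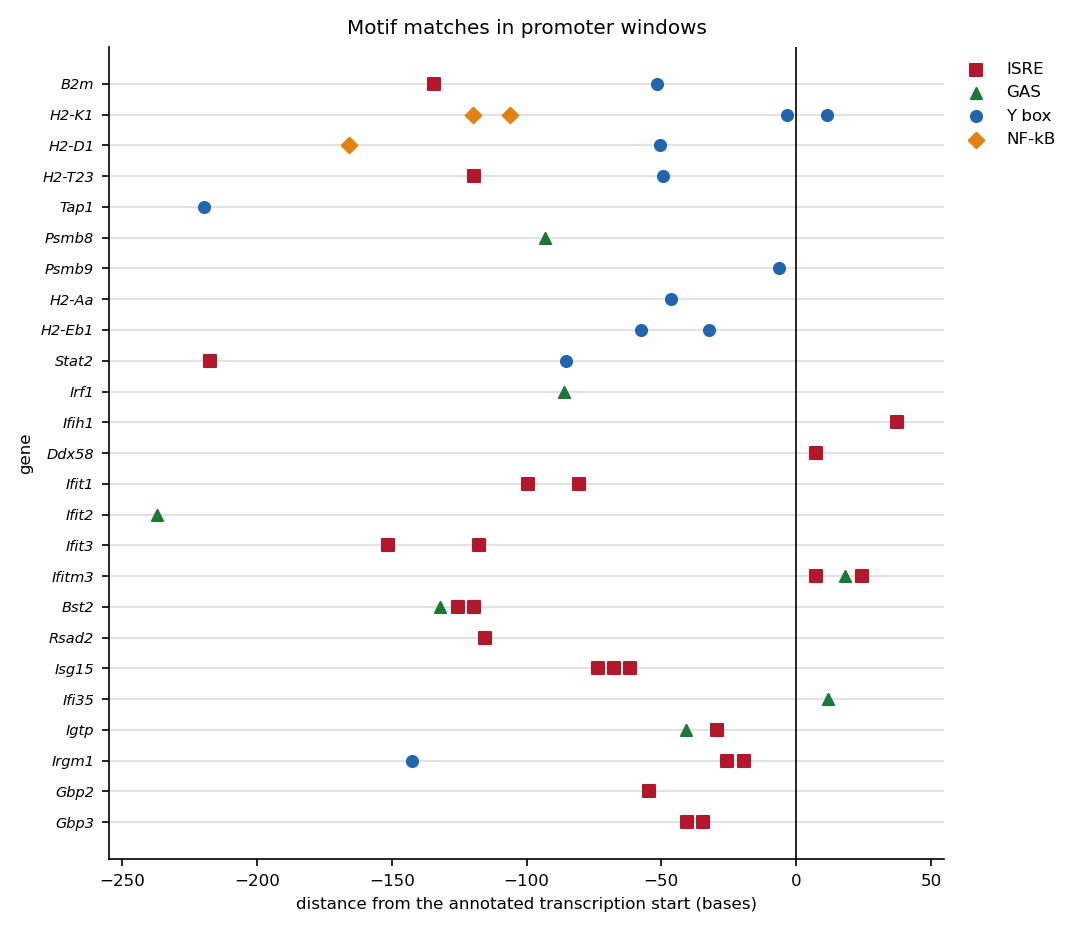
Matches to 4 motifs (colors and symbols) in the 300-base promoter windows of members that hold any, by distance in bases of the middle of the match from the annotated start. H2-K1 has a window for each of 2 starts, so its 1 NF-kB stretch appears at 2 distances.

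No member passed an adjusted p of 0.05 in any of the 4 comparisons or in the CUMS by krill oil interaction, also when only the 10 libraries were fitted. The smallest adjusted p of a member was 0.436 (Igtp, C_W vs. MS_W), and 0.177 in the 10 libraries (the same gene and comparison). With all libraries, the share of all tested genes that passed was 0.00467% in C_W vs. MS_W, C_O vs. MS_O and MS_W vs. MS_O and 0% in C_W vs. C_O and in the interaction. In the 10 libraries it was 1.15% in C_W vs. MS_W, 0.014% in C_O vs. MS_O, 0.00467% in C_W vs. C_O, 0.271% in MS_W vs. MS_O and 0.145% in the interaction. At an unadjusted p under 0.05, limma had 1 member in C_W vs. MS_W (Igtp, lower), 0 in C_O vs. MS_O, 2 in C_W vs. C_O (Cd74 and Bst2, higher), 3 in MS_W vs. MS_O (Ifit2, Usp18 and Igtp, higher) and 1 in the interaction (Ifit2). The background shares of all tested genes at that p were 10.5% (6.71% higher and 3.79% lower), 8.88% (6.69% and 2.18%), 3.55% (1.51% and 2.04%), 6.09% (2.63% and 3.46%) and 7.23% (3.6% and 3.63%), in the same order.

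By the DEG criteria, 0 members were called in C_W vs. MS_W (background 4.59%, 2.5% higher and 2.1% lower) and 0 in C_O vs. MS_O (background 3.57%, 2.82% higher and 0.753% lower). In C_W vs. C_O, Cd74 and Bst2 were called, both higher in C_O, which is 5.41% of the tested members against a background of 1.76% (0.865% higher). In MS_W vs. MS_O, Ifit2 and Usp18 were called, both higher in MS_O, again 5.41% against 2.81% (1.43% higher). Without C_O72 and MS_W95 the calls were 1 (Cd74, higher), 0, 0 and 2 (Ifit2 and Usp18, higher) in the same order, against backgrounds of 5.81%, 4.28%, 1.64% and 3.36%. The C_W vs. C_O count was also 0 without C_W64 or without C_O72 (backgrounds of 1.34% and 1.17%), 1 without C_W70 or C_O30 (1.5% and 2.75%), and 7 without C_O15 (4.15%). The MS_W vs. MS_O count was 0 without MS_O78 (background 2.16%) and 1 without MS_W31 or MS_W75 (3.9% and 3.54%).

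The direction of the differences leaned one way in the krill oil comparisons. In C_W vs. C_O, 32 of 37 members had a positive log2FC (86.5%, against 50.4% of all tested genes) and their median was 0.26, against 0.0017 over all tested genes. In MS_W vs. MS_O, 29 of 37 were positive (78.4% against 46.3%), with a median of 0.13 against -0.016, and the median was 0.040 without MS_O78. The members are not independent of each other, and these shares carry no test. Without C_O72 and MS_W95, 31 members were positive in C_W vs. C_O (median 0.13, all genes -0.014) and 32 in MS_W vs. MS_O (median 0.19, all genes -0.0005).

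With all libraries, the CUMS comparisons were closer to the background. In C_W vs. MS_W, 24 members were positive (64.9% against 62.1%) with a median of 0.12 against 0.062, and in C_O vs. MS_O, 20 were positive (54.1% against 56.7%) with a median of 0.019 against 0.033. In the 10 libraries, 21 were positive in C_W vs. MS_W (56.8% against 59.5%, median 0.060 against 0.044) and 28 in C_O vs. MS_O (75.7% against 61.2%, median 0.12 against 0.049). With each library centred on its median, 20 members were positive in C_W vs. MS_W (median 0.031, all genes -0.026). In C_O vs. MS_O, 8 were positive in that setting (median -0.062, all genes -0.049). For the interaction the members had a median of -0.096 with 13 positive (35.1% against 47.4%), and of 0.071 with 24 positive in the 10 libraries. The group ranges did not overlap for 11 members in C_W vs. MS_W (29.7%, background 24.6%), with 8 of them higher in MS_W (Tap2, H2-Aa, H2-Ab1, Cd74, Stat2, Ddx58, Trim25 and Rtp4, background 16.3%) and 3 lower (H2-T23, Usp18 and Igtp, background 8.22%). In C_O vs. MS_O this held for 1 member (Ifit2, higher, background 12.2% in all and 8.9% higher), in C_W vs. C_O for 5 (Tap2, Irf7, Ifitm3 and Bst2 higher and Ifit2 lower, background 9.42%, of which 4.08% higher and 5.34% lower), and in MS_W vs. MS_O for 3 (Ifit2, Usp18 and Igtp higher, background 12.3% in all and 4.64% higher). In the 10 libraries these counts were 16 (43.2%), 4 (10.8%), 5 (13.5%) and 9 (24.3%), against backgrounds of 38.8%, 26.8%, 19.3% and 22.3%. Higher were 9, 3, 4 and 9 of them (backgrounds 25.2%, 18.9%, 8.32% and 9.27%). Lower were 7, 1, 1 and 0 (backgrounds 13.7%, 7.9%, 11% and 13%).

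**Figure D2:**
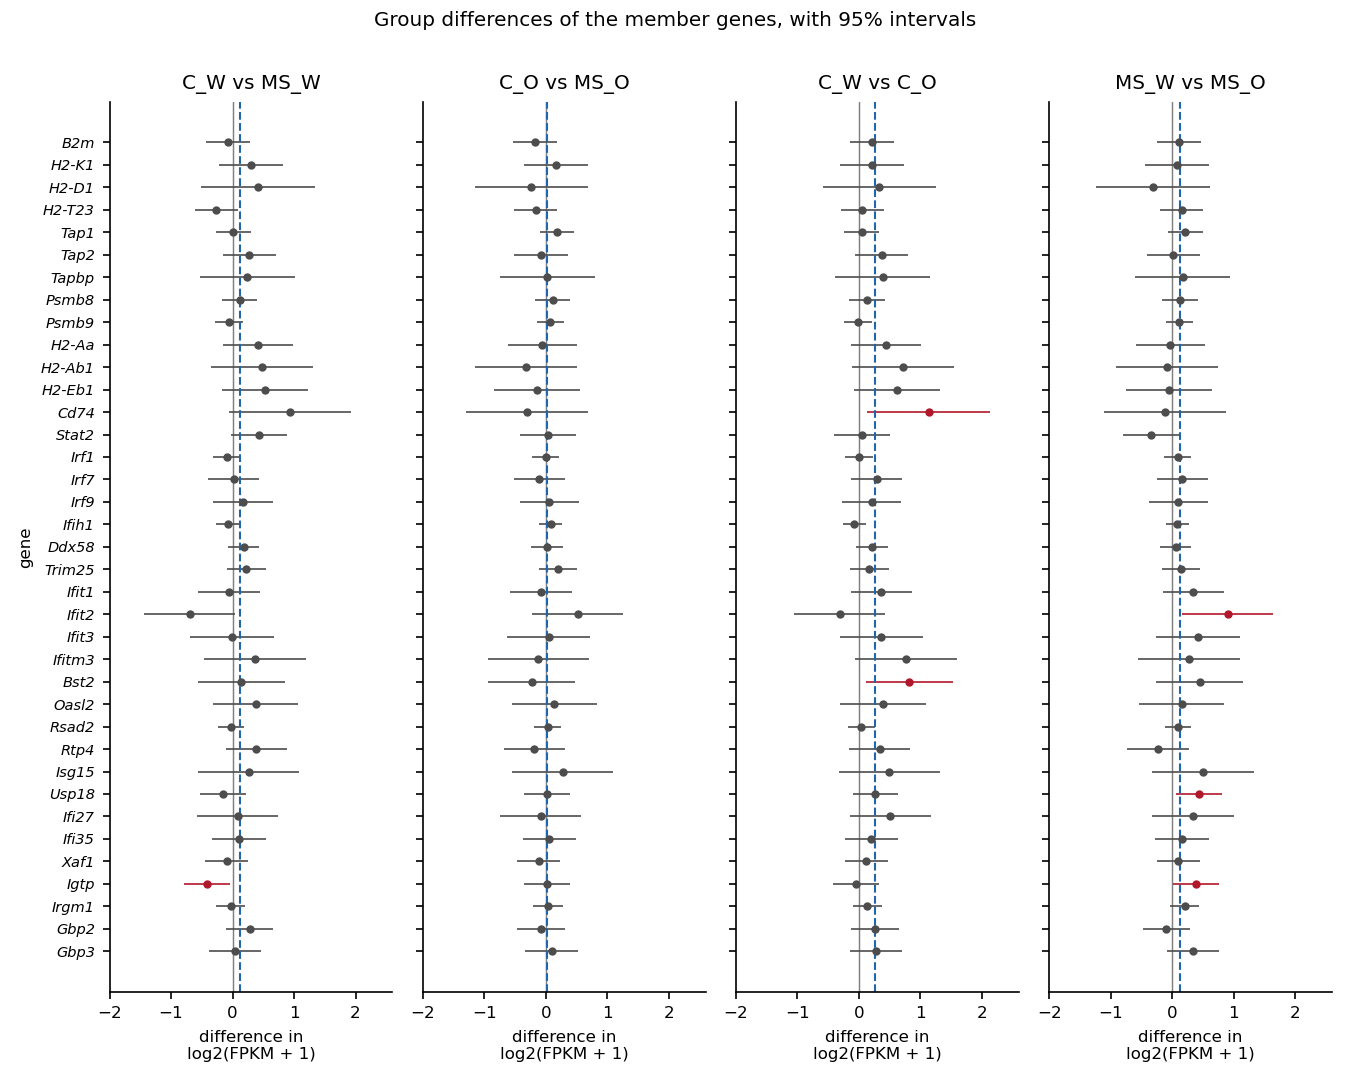
Differences in log2(FPKM + 1) of the 37 tested members in the 4 comparisons, the second group minus the first, with 95% intervals of the limma fit. Red marks an unadjusted p under 0.05 (1, 0, 2 and 3 members from left to right), the dashed line is the median of the members, and no member passed the adjusted threshold.

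Single mice accounted for most of the highest values. MS_O78 was the highest library for 16 of the 37 members (43.2%, against 9.05% of all tested genes) and C_O72 for 11 (29.7% against 18.7%), followed by MS_W95 with 4 (10.8% against 19.2%). No member was highest in a C_W library, in MS_W31, MS_W75 or MS_O13. In MS_O78, 36 of 37 members were above their own median over the libraries. The median deviation of the members from that median was 0.28 on the log2(FPKM + 1) scale, against 0.016 for all tested genes. In C_O72, 31 were above it (median 0.30, all genes 0.0013), while in C_W1 and C_W64 5 and 8 were (median -0.13 in both).

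The 2 high mice differed in which members were high. Of the 24 tested interferon response members, 13 were highest in MS_O78 and 4 in C_O72, and the median deviation was 0.49 in MS_O78 and 0.18 in both C_O72 and C_O30. Of the 13 tested antigen presentation members, 7 were highest in C_O72 and 3 in MS_O78, with median deviations of 0.67 and 0.24. MS_O13 and MS_O46, from the same group as MS_O78, had medians of -0.074 and -0.0024 for the interferon response members. Each krill oil group held both a mouse far above and a mouse near or below the medians of the genes.

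**Figure D3:**
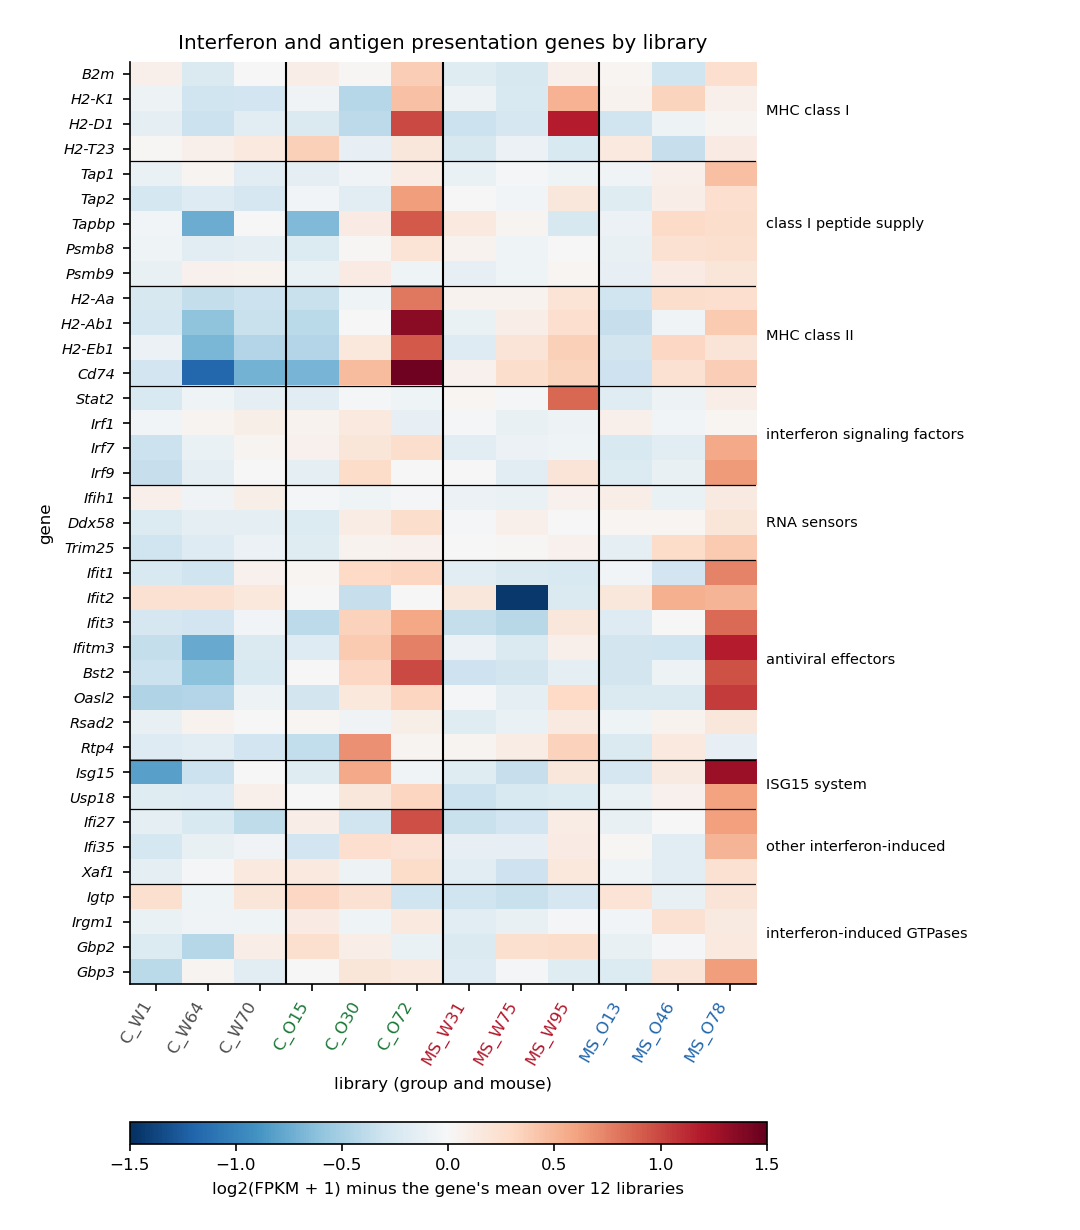
Log2(FPKM + 1) of each tested member minus its mean over the 12 libraries, by role (rows) and library (columns), with colors saturated at 1.5 in both directions. The column of MS_O78 is red in most interferon-induced rows (13 of 24 members highest there), the column of C_O72 is darkest in the MHC class II rows, and H2-D1 and Stat2 are darkest in MS_W95.

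The MHC class I genes B2m and H2-D1 were the most abundant members. B2m, the invariant light chain of class I molecules, had FPKM of 90.1, 73.2 and 85.6 in C_W, of 91.3, 86.3 and 111 in C_O, of 74.8, 72.0 and 89.6 in MS_W, and of 87.0, 69.1 and 101 in MS_O. The ranges of the 4 groups overlapped, and the highest library was 1.60 times the lowest. H2-D1, a classical class I heavy chain (chr17:35262730-35267499), had FPKM of 18.2, 15.9 and 17.8 in C_W, of 17.2, 15.0 and 40.8 in C_O, of 15.9, 16.7 and 46.6 in MS_W, and of 16.2, 19.1 and 20.8 in MS_O. Only C_O72 and MS_W95 were far above the rest, and both are the libraries with hindbrain genes.

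For H2-D1 the log2FC was 0.41 (SE 0.42, 95% interval -0.52 to 1.33) in C_W vs. MS_W with all libraries and -0.081 in the 10 libraries. H2-K1, the other classical heavy chain, was also highest in MS_W95 (9.74) and C_O72 (9.15), and was between 4.56 and 8.44 elsewhere. H2-T23, the non-classical Qa-1 chain that presents to receptors of natural killer cells, had FPKM of 4.20, 4.41 and 4.66 in C_W, of 5.59, 3.70 and 4.77 in C_O, of 3.33, 3.84 and 3.39 in MS_W, and of 4.67, 3.03 and 4.57 in MS_O. Every MS_W library was below every C_W library (log2FC -0.26, SE 0.16, adjusted p = 0.569 by limma). Class I heavy chains are close in sequence, and reads could be split among them, so that their single values are uncertain.

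Among the genes that supply class I with peptides, Tapbp was the most abundant. Tapbp (tapasin, which holds class I to the peptide transporter) had FPKM of 5.11, 2.74 and 5.33 in C_W, of 2.96, 5.84 and 10.9 in C_O, of 5.95, 5.46 and 4.33 in MS_W, and of 4.89, 6.66 and 6.54 in MS_O. C_O72 was the highest library and C_W64 and C_O15 the lowest, so that the C_O group held both high and low mice. Tapbp overlaps Zbtb22 over 3422 bases on the same strand. Psmb9, a catalytic subunit of the immunoproteasome, was the least abundant, with FPKM of 0.173, 0.325 and 0.316 in C_W, of 0.183, 0.376 and 0.215 in C_O, of 0.159, 0.214 and 0.291 in MS_W, and of 0.163, 0.383 and 0.437 in MS_O. Its groups overlapped throughout, and it shares 212 bases with Tap1 on the opposite strand.

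The other 3 supply genes were Tap1 and Tap2, the subunits of the peptide transporter, and the immunoproteasome subunit Psmb8, with mean FPKM of 0.467, 2.19 and 0.855. Tap1 and Psmb8 were highest in MS_O78 (0.992 and 1.19) and Tap2 in C_O72 (3.85). Tap2 in C_W stayed between 1.62 and 1.76, below every C_O library (1.78 to 3.85) and every MS_W library (2.05 to 2.52). The log2FC of Tap2 were 0.37 (SE 0.20, adjusted p = 0.908 by limma) in C_W vs. C_O and 0.27 (SE 0.20, adjusted p = 0.616) in C_W vs. MS_W.

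MHC class II genes varied widely among mice, from 6.50 times between the highest and lowest library for H2-Aa to 19.2 times for H2-Ab1. Cd74, the invariant chain that guards the class II groove, had FPKM of 2.53, 0.912 and 1.64 in C_W, of 1.65, 4.99 and 10.9 in C_O, of 3.50, 4.16 and 4.42 in MS_W, and of 2.49, 4.07 and 4.57 in MS_O. C_O72 and C_O30 were the highest, C_O15 lay within the C_W range, and every MS_W library was above every C_W library. In C_W vs. C_O the group means differed 3.44 times (log2FC 1.13, SE 0.45, 95% interval 0.14 to 2.13, unadjusted p = 0.0293 and adjusted p = 0.908 by limma), and the log2FC was 0.61 (adjusted p = 1) in the 10 libraries. Cd74 also missed the DEG criteria without C_W64, C_W70, C_O30 or C_O72, each left out alone. In C_W vs. MS_W they differed 2.37 times (log2FC 0.94, SE 0.45, unadjusted p = 0.0617 and adjusted p = 0.489), with a log2FC of 0.88 in the 10 libraries (adjusted p = 0.313).

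The alpha and beta chains shared the highest and the lowest mouse with Cd74, but not the order between them. H2-Eb1 had FPKM of 0.971, 0.309 and 0.545 in C_W, of 0.544, 1.35 and 2.96 in C_O, of 0.829, 1.39 and 1.70 in MS_W, and of 0.735, 1.60 and 1.39 in MS_O. H2-Aa had FPKM of 0.397, 0.287 and 0.317 in C_W, of 0.307, 0.582 and 1.86 in C_O, of 0.708, 0.719 and 0.911 in MS_W, and of 0.338, 0.990 and 0.972 in MS_O. H2-Ab1 had a mean FPKM of 0.933 and reached 3.62 in C_O72, against 0.188 in C_W64. All 4 class II genes were highest in C_O72 and lowest in C_W64, and C_O15, MS_O13 and the 3 C_W libraries were below the median of the 12 libraries for all 4.

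The median log2FC of the 4 class II genes was 0.50 in C_W vs. MS_W and 0.67 in C_W vs. C_O, with 4 of 4 positive in both, and -0.22 and -0.066 in C_O vs. MS_O and MS_W vs. MS_O, with 0 of 4 positive. Without C_O72 and MS_W95 these medians were 0.40, 0.23, 0.21 and 0.0095 in the same order, with 4, 4, 4 and 2 positive. In a fit of only the C_W and MS_W libraries, Cd74, H2-Aa, H2-Ab1 and H2-Eb1 met the DEG criteria, all higher in MS_W (background 4.96%, 2.53% higher), while in the fit of all 4 groups none did. On estimated counts, edgeR called no member in C_W vs. MS_W and DESeq2 called Cd74 alone. In C_W vs. C_O the same 4 genes met the criteria, higher in C_O, with edgeR, with DESeq2 and without C_O15. The backgrounds there were 1.81%, 2.12% and 2.34% higher. The median of their interaction was -0.73 with all libraries and -0.19 in the 10 libraries.

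Markers of other cells moved with these values in part. The summed FPKM of 8 meningeal markers, such as Dcn, Igf2 and Slc13a4, was 62.9 in C_O72, between 9.8 and 16.1 in C_W, 16.5 and 28.6 in the other C_O libraries, 18.8 to 27.5 in MS_W and 12.5 to 28.1 in MS_O. Of these 8 genes, 6 met the DEG criteria in C_W vs. C_O, all higher (background 0.865% higher). In C_W vs. MS_W, 2 met them, both higher (background 2.5% higher), and in C_O vs. MS_O and MS_W vs. MS_O none did. The sum of 8 markers of macrophages at the brain borders (Mrc1 and Cd163 among them) was 4.5 in C_O72, 4.1 in C_O30 and 3.9 in MS_O78 and between 2.0 and 3.0 in the other libraries. The sum of 7 choroid plexus markers, nearly all of it Ttr, was 4833 in C_O72 and between 5.3 and 1818 elsewhere. The sum of 14 microglial markers did not follow class II, at 202 in C_O72 and 134 in MS_W95, the lowest of all, against 182 to 260.5 in the others. The sums of 6 pericyte markers were highest in C_O72 (80.8) and MS_O78 (78.3), against 42.9 to 61.0 in the others. These are the mice in which most members were highest. In both, most of the pericyte sum was Vtn (51.5 and 56.6). Pdgfrb in MS_O78 (5.00) was above every C_W library, while Rgs5, Kcnj8, Abcc9 and Higd1b there were not above the highest C_W library. The 11 endothelial markers summed to 143 in C_O72 against 76.0 to 107. The oligodendrocyte sum was 1216 in C_O72, 677 in MS_W95 and at most 480.1 elsewhere. The sum of 5 blood markers, such as Hba-a1, was 412 in MS_W95, but 31.3 and 12.7 in MS_W31 and MS_W75. It was 159 to 213 in C_W, 61.3 to 240 in C_O and 16.8 to 65.6 in MS_O. The sum of 8 neutrophil and monocyte markers was 30.5 in MS_W95 and at most 15.4 elsewhere. The part of all these cells in the class II and other member values was not tested.

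Most markers that define lymphocytes and dendritic cells were scarce, and their part in the values was not tested. Cd3e, Cd3d, Cd3g and Cd8a were at most 0.167, although Cd4 reached 6.37 in MS_O13 and Ighm 35.2 in C_O15. Of the dendritic cell markers, Itgax, Xcr1, Cd209a and Ccr7 were at most 0.191, Flt3 was 4.87 and 4.81 in C_O72 and MS_W95 and at most 1.51 elsewhere, and Zbtb46 was 5.25 in MS_W95 and 1.87 in C_O72. The sum of all 7 dendritic cell markers was 6.94 in C_O72, 10.2 in MS_W95 and at most 3.08 elsewhere. Lck, a kinase of T cells, reached 0.785 in MS_W75, and Cd79a, part of the B cell receptor, 0.591 in C_O72.

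**Figure D4:**
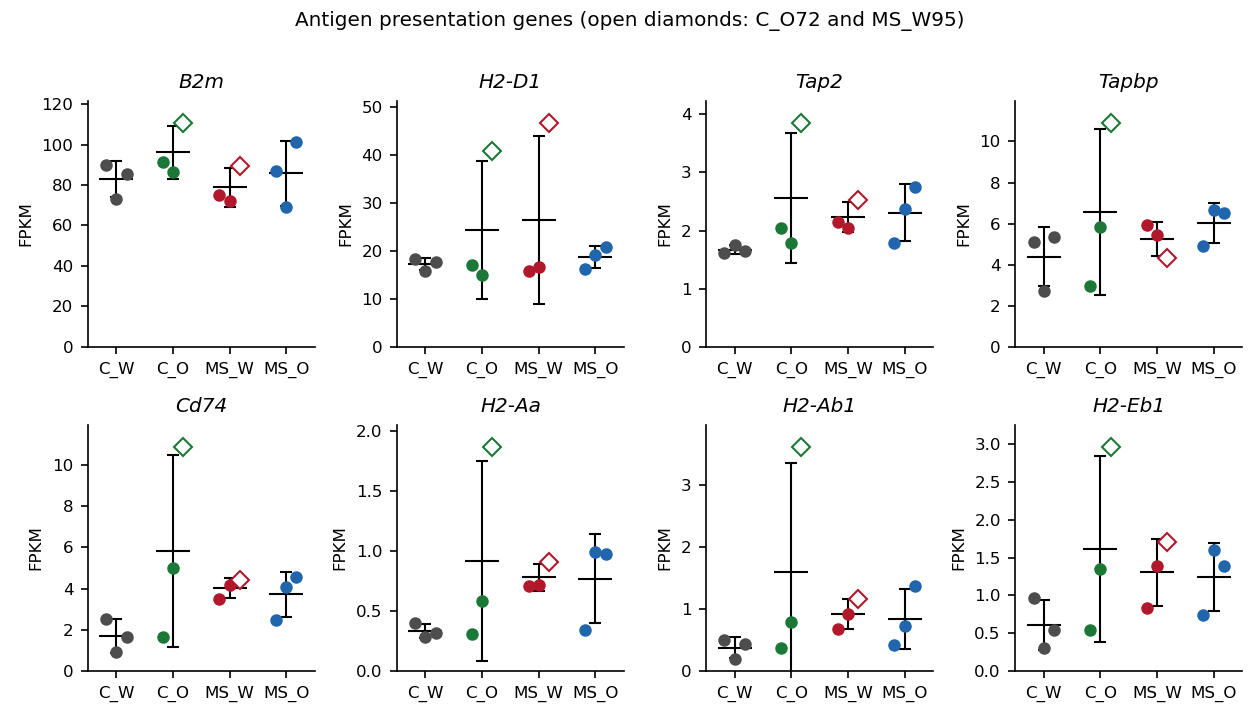
FPKM of 8 antigen presentation genes in each mouse by group, with the mean and SD of 3 mice (lower bars end at 0 where the SD is larger than the mean) and open diamonds for C_O72 and MS_W95. C_O72 is the highest point in every panel except H2-D1, where MS_W95 at 46.6 is above it, and the C_W points of the 4 class II genes are low.

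The transactivators of these genes were barely detected. Nlrc5, which drives class I genes, had FPKM of 0.0284, 0.0762 and 0.140 in C_W, of 0.0683, 0.0526 and 0.110 in C_O, of 0.0980, 0.0487 and 0.0719 in MS_W, and of 0.0718, 0.0946 and 0.184 in MS_O. Ciita, the master regulator of class II, had FPKM of 0.0880, 0.0835 and 0.111 in C_W, of 0.119, 0.133 and 0.0719 in C_O, of 0.0246, 0.0556 and 0.0766 in MS_W, and of 0.0532, 0.129 and 0.103 in MS_O. Ciita was lower in every MS_W library than in every C_W library, and in C_O72, where class II was highest, it was below its level in the other C_O mice. With estimated counts from 16 to 103 for these genes, differences between groups were hard to detect at this depth, and neither was tested.

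Of the signaling factors, Stat2, a component of the complex that binds the ISRE, was the most abundant. Its FPKM were 2.14, 2.52 and 2.35 in C_W, 2.27, 2.59 and 2.52 in C_O, 2.75, 2.61 and 5.67 in MS_W, and 2.25, 2.49 and 2.94 in MS_O. Only MS_W95 was far from the others, and the log2FC of C_W vs. MS_W was 0.43 (SE 0.21, unadjusted p = 0.0633, adjusted p = 0.491 by limma) and 0.14 in the 10 libraries. Irf7, which amplifies type I interferon production, had FPKM of 0.316, 0.537 and 0.687 in C_W, of 0.717, 0.860 and 0.968 in C_O, of 0.460, 0.551 and 0.577 in MS_W, and of 0.404, 0.478 and 1.43 in MS_O.

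Every C_O library had more Irf7 than every C_W library (log2FC 0.29, SE 0.19, adjusted p = 0.908), while in MS_O only MS_O78 was high. Irf9, the DNA-binding partner of Stat2, also peaked in MS_O78, at 4.12 against 1.60 to 2.99 elsewhere, and it shares 123 bases with Rnf31 on the same strand. Irf1, the factor that responds to interferon gamma, was the steadiest of the 4, between 1.13 and 1.57.

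The RNA sensors varied less from mouse to mouse than the effectors. Trim25, the ubiquitin ligase that activates the sensor RIG-I, had FPKM of 0.746, 0.870 and 1.02 in C_W, of 0.886, 1.22 and 1.25 in C_O, of 1.16, 1.17 and 1.24 in MS_W, and of 0.949, 1.58 and 1.82 in MS_O. Its MS_W libraries were above its C_W libraries (log2FC 0.22, SE 0.14, adjusted p = 0.577 by limma). Ifih1, which encodes the sensor MDA5, had FPKM of 0.432, 0.313 and 0.445 in C_W, of 0.340, 0.304 and 0.339 in C_O, of 0.279, 0.267 and 0.421 in MS_W, and of 0.453, 0.269 and 0.497 in MS_O, with all groups overlapping. Ddx58, which encodes RIG-I, ranged from 0.474 in C_W1 to 1.04 in C_O72.

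Antiviral effectors had the widest differences among interferon-induced genes. Ifitm3, a membrane protein that blocks fusion of viruses with the cell, had FPKM of 10.2, 7.50 and 11.4 in C_W, of 11.6, 17.9 and 23.3 in C_O, of 12.5, 11.4 and 14.2 in MS_W, and of 10.9, 10.7 and 31.4 in MS_O. Every C_O library was above every C_W library, and MS_O78 was far above both other MS_O libraries. The log2FC of C_W vs. C_O was 0.76 (SE 0.37, 95% interval -0.06 to 1.59, adjusted p = 0.908 by limma), and 0.54 in the 10 libraries.

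Bst2 (tetherin), which holds budding virus particles at the cell surface, had FPKM of 3.29, 2.50 and 3.60 in C_W, of 4.35, 5.66 and 9.65 in C_O, of 3.34, 3.42 and 3.86 in MS_W, and of 3.43, 4.11 and 9.45 in MS_O. All C_O libraries were above all C_W libraries, and C_O72 and MS_O78 were the highest. The C_O mean of 6.55 ± 2.76 (SD, n = 3) was 2.09 times the C_W mean of 3.13 ± 0.565 (log2FC 0.82, SE 0.32, 95% interval 0.11 to 1.53, unadjusted p = 0.0277, adjusted p = 0.908 by limma). The log2FC was 0.54 in the 10 libraries, where the unadjusted p was 0.135, and Bst2 also missed the DEG criteria without C_W64 and without C_O72.

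Ifit2, which binds RNA and restrains translation, went another way than the other effectors in C_W vs. C_O, where it alone had a negative log2FC. In MS_W vs. MS_O its log2FC was positive, like those of the other effectors except Rtp4. Its FPKM were 2.59, 2.58 and 2.43 in C_W, 2.09, 1.41 and 2.08 in C_O, 2.46, 0.126 and 1.65 in MS_W, and 2.47, 3.46 and 3.36 in MS_O. All C_O libraries were below all C_W libraries, all MS_O libraries were above all C_O and, narrowly for MS_O13, all MS_W libraries, and MS_W75, with an estimated count of 29, was lower than any other library. The MS_O mean of 3.09 ± 0.547 (SD, n = 3) was 2.19 times the MS_W mean of 1.41 ± 1.19 (log2FC 0.90, SE 0.33, unadjusted p = 0.0209, adjusted p = 0.790 by limma). Over the library left out in turn the log2FC lay between 0.43 and 1.24, the lowest without MS_W75, the DEG criteria were missed without MS_W75, MS_O46 or MS_O78, and on estimated counts edgeR gave an unadjusted p of 0.122.

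Rsad2 (viperin), an enzyme that makes a chain-terminating nucleotide, was the least abundant effector, with FPKM of 0.128, 0.263 and 0.224 in C_W, of 0.242, 0.179 and 0.295 in C_O, of 0.0743, 0.141 and 0.343 in MS_W, and of 0.168, 0.267 and 0.368 in MS_O. Its groups overlapped. The other effectors were Ifit1, Ifit3, Oasl2 and Rtp4, with mean FPKM of 0.906, 8.54, 0.942 and 0.994. Ifit1, Ifit3 and Oasl2 were highest in MS_O78 (2.12, 15.5 and 2.84) with C_O72 next, while Rtp4 was highest in C_O30 (2.14). Reads of Ifit3 could be shared with its near copy Ifit3b, and Rtp4 overlaps Gm45338 over 39791 bases on the same strand, so both values are uncertain.

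The ubiquitin-like Isg15 and Usp18, the protease that removes it from proteins, were both highest in MS_O78. Isg15 had FPKM of 1.08, 1.91 and 2.62 in C_W, of 2.22, 4.40 and 2.51 in C_O, of 2.22, 1.87 and 3.10 in MS_W, and of 2.06, 2.98 and 7.84 in MS_O. MS_O78 was 7.27 times C_W1 and 1.78 times C_O30, the next highest, and the groups overlapped in every comparison. Usp18 had FPKM of 0.355, 0.340 and 0.612 in C_W, of 0.539, 0.728 and 0.915 in C_O, of 0.228, 0.304 and 0.325 in MS_W, and of 0.428, 0.596 and 1.32 in MS_O.

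All 3 MS_W libraries had less Usp18 than every library of the other groups. The MS_O mean of 0.783 ± 0.476 (SD, n = 3) was 2.74 times the MS_W mean of 0.286 ± 0.0511 (log2FC 0.44, SE 0.17, 95% interval 0.07 to 0.81, unadjusted p = 0.0242, adjusted p = 0.792 by limma), and the log2FC on this scale understates the change of so low a gene. Without MS_O78 the log2FC was 0.23, and the DEG criteria were missed without MS_O78 and without MS_W31.

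Ifi27, a small mitochondrial and nuclear membrane protein, was among the 4 members with a mean FPKM of at least 10. Its FPKM were 12.2, 11.6 and 10.2 in C_W, 14.7, 10.9 and 27.8 in C_O, 10.7, 11.0 and 14.9 in MS_W, and 12.6, 13.8 and 21.5 in MS_O. C_O72 and MS_O78 were the highest, and the groups overlapped. Xaf1, which promotes cell death, had FPKM of 0.778, 0.922 and 1.18 in C_W, of 1.18, 0.860 and 1.37 in C_O, of 0.757, 0.586 and 1.19 in MS_W, and of 0.879, 0.740 and 1.30 in MS_O, again with overlap. Ifi35 ranged from 1.12 in C_O15 to 2.70 in MS_O78.

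The GTPases act against intracellular parasites and bacteria. Igtp (Irgm3) had FPKM of 3.64, 2.76 and 3.45 in C_W, of 3.85, 3.58 and 2.19 in C_O, of 2.20, 2.10 and 2.28 in MS_W, and of 3.51, 2.64 and 3.47 in MS_O. The 3 MS_W libraries and C_O72 lay close together and below the other 8 libraries. The log2FC of Igtp was -0.42 (SE 0.17, 95% interval -0.79 to -0.05, unadjusted p = 0.0310, adjusted p = 0.436 by limma) in C_W vs. MS_W and 0.39 (SE 0.17, unadjusted p = 0.0408, adjusted p = 0.815) in MS_W vs. MS_O.

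In the 10 libraries these values of Igtp were -0.44 (adjusted p = 0.177) and 0.41 (adjusted p = 0.435). Igtp and Irgm2 overlap over 7974 bases on the same strand, so reads of the 2 genes could not be told apart there. Gbp3, a guanylate-binding protein, had FPKM of 0.652, 1.25 and 0.962 in C_W, of 1.18, 1.47 and 1.42 in C_O, of 0.908, 1.14 and 0.935 in MS_W, and of 0.893, 1.50 and 2.39 in MS_O. Gbp2 had FPKM of 0.864, 0.591 and 1.29 in C_W, of 1.54, 1.29 and 1.00 in C_O, of 0.850, 1.53 and 1.58 in MS_W, and of 0.985, 1.11 and 1.38 in MS_O. Both overlapped between the groups, and Irgm1, a regulator of the other GTPases, stayed between 1.40 and 2.16.

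**Figure D5:**
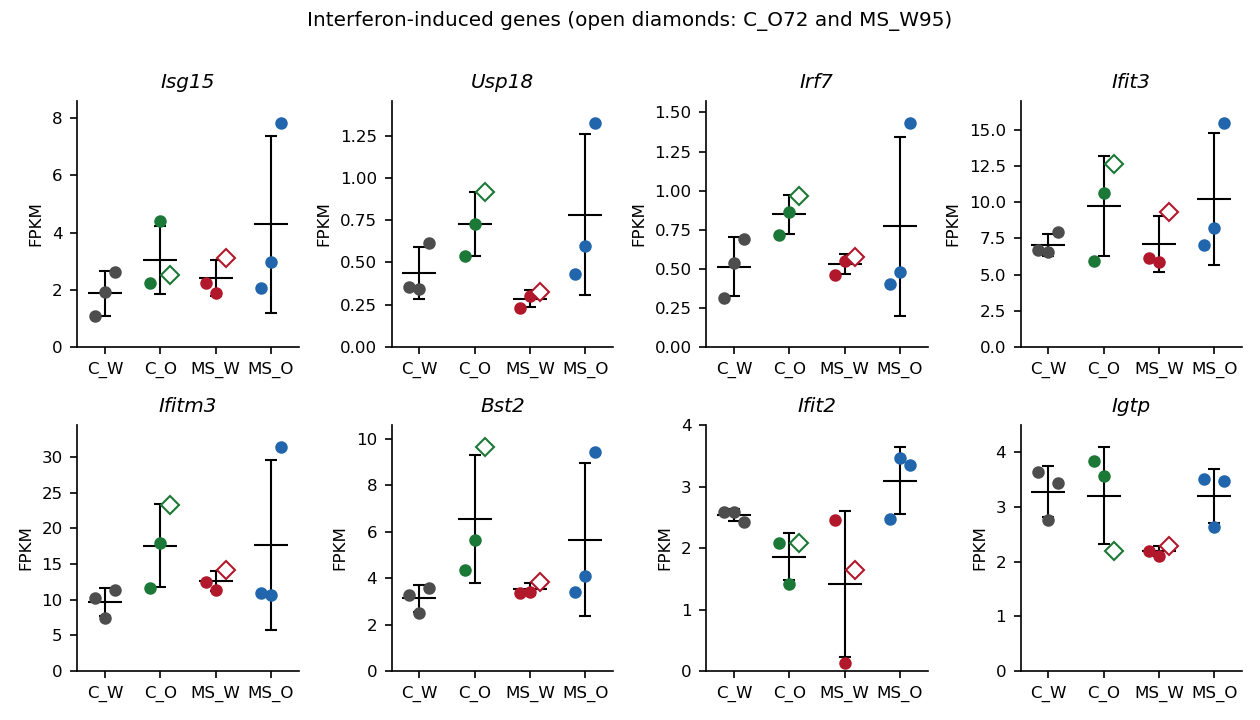
FPKM of 8 interferon-induced genes in each mouse by group, with the mean and SD of 3 mice and open diamonds for C_O72 and MS_W95. MS_O78 is the highest point for Isg15, Usp18, Irf7, Ifit3 and Ifitm3, Ifit2 is lowest in MS_W75 at 0.126, and Igtp is low in the 3 MS_W mice and C_O72.

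Other genes of these pathways were taken from a list of 97 names, of which 96 were found and 86 tested. None passed the adjusted threshold in any comparison. Ligands were close to absence in these libraries, with Ifnb1, Ifna4 and Ifnl2 listed at 0.0001, the value for a gene without an estimate, in all of them and Ifng above that in MS_W31 alone (0.0440). The receptors were expressed, Ifnar1 with a mean FPKM of 6.86 and Ifngr2 with 9.41. Ifngr2, a chain of the interferon gamma receptor singled out after its values were seen, was lower in every MS_O library (6.71 to 7.84) than in every C_O library (10.1 to 11.3), with a log2FC of -0.52 (SE 0.12, adjusted p = 0.479 by limma). By the DEG criteria there were 1 higher and 1 lower gene in C_W vs. MS_W, 2 higher in C_O vs. MS_O, 3 higher in C_W vs. C_O and 1 higher in MS_W vs. MS_O, against backgrounds of 2.5% higher and 2.1% lower, 2.82% higher, 0.865% higher and 1.43% higher among all tested genes. The medians of log2FC over the 86 genes were 0.070, -0.013, 0.098 and 0.023, against 0.062, 0.033, 0.0017 and -0.016 over all tested genes.

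Of these, the smallest unadjusted p in C_W vs. C_O was that of Lgals3bp, a secreted glycoprotein induced by interferon and viral infection. It had FPKM of 3.62, 2.46 and 2.55 in C_W, of 6.38, 4.44 and 6.54 in C_O, of 3.98, 3.99 and 4.28 in MS_W, and of 5.89, 7.27 and 9.03 in MS_O. Every library of either krill oil group was above every library of either water group, also for C_O15 and MS_O13, which were not high for the members. Lgals3bp was picked by its p in these same values, and the share of all genes separated in this way was not counted. The log2FC was 0.80 (SE 0.18, unadjusted p = 0.00100, adjusted p = 0.908 by limma) in C_W vs. C_O and 0.71 (SE 0.18, unadjusted p = 0.00243, adjusted p = 0.547) in MS_W vs. MS_O, where the ratio of means missed the DEG criteria.

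Ifi47, a relative of Igtp, was near 0.124 in C_W and at least 0.256 in every other library, and met the criteria in C_W vs. MS_W (log2FC 0.31, SE 0.10) and C_W vs. C_O (log2FC 0.30, SE 0.10). Ifitm1 was higher in C_O than in C_W (log2FC 0.87, SE 0.37), with 7.93 in C_O72 and 1.43 and 3.09 in the other C_O mice, the lower of which was within the C_W range (0.945 to 1.78). Herc6, a ligase for Isg15 in mice, was lower in MS_W (0.638, 0.377 and 0.152) than in C_W (1.12, 1.44 and 1.75), with a log2FC of -0.82 (SE 0.23, unadjusted p = 0.00525, adjusted p = 0.303 by limma). The chemokine Cxcl10 was 0.313 and 0.373 in MS_O46 and MS_O78 and at most 0.104 elsewhere, and met the criteria in C_O vs. MS_O and MS_W vs. MS_O. It lay near the minimum mean FPKM of 0.1 for testing, and these 2 mice raised its mean, so its calls carry little weight. Mx2 met the criteria in C_O vs. MS_O, with 0.662 and 0.850 in the same 2 mice.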

How the data were processed

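Poly(A) RNA of 12 whole brains was sequenced by the authors. They aligned the reads with HISAT to the mouse genome (mm10), used StringTie for assembly and FPKM, with Ballgown also named for expression estimates, and deposited FPKM and estimated count values per gene and library. The submitters' processing notes name HISAT2 2.0.4, StringTie 1.3.4d and cutadapt 1.9. The libraries mark strand, but whether the counting used it is not given in the sources used here. A gene without an estimate was listed at 0.0001. The estimated counts were derived from coverage and were used for depth and for 2 alternatives, rounded to whole numbers.

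From the FPKM values, genes with a mean of at least 0.1 were tested with limma 3.58.1 in R 4.3.3 (lmFit, then eBayes with a trend), on log2(FPKM + 1) values, with p-values adjusted over 21393 genes. The script was tested on simulated data. The members and gene lists were chosen with earlier results of these data known, so that no list has a test of its own. Members were given in full where an unadjusted p was under 0.05, where they were the most or least abundant of their role, or where the highest library was over 3 times the lowest at a mean FPKM of at least 1. Other genes of the pathways were named where they met the DEG criteria, or, for ligands and receptors, after their values were seen. Alternatives were another scaling, pseudocount, filter, fit or count model (edgeR 4.0.16, DESeq2 1.42.0) and leaving out libraries. Promoter sequences were those of RefSeq for GRCm38.p6, the assembly that mm10 names. Precision rests on 3 mice per group.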

Additional observations from a re-analysis of the deposited data

Results flagged for a closer look

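Ifit2 was noted because the krill oil groups lay on opposite sides of their water controls. The log2 ratio of mean FPKM was -0.45 in C_W vs. C_O, with all 3 C_O mice below all 3 C_W mice, and 1.13 in MS_W vs. MS_O, with all 3 MS_O mice above all 3 MS_W mice. The interaction of CUMS and krill oil for Ifit2 was 1.22 on the log2(FPKM + 1) scale (SE 0.47, 95% interval 0.18 to 2.25, unadjusted p = 0.0260, adjusted p = 0.665 by limma), and so it did not pass the threshold. In the 10 libraries without C_O72 and MS_W95 it was 1.42 (adjusted p = 0.612). The result leans on MS_W75, where the FPKM was 0.126 against 2.46 and 1.65 in MS_W31 and MS_W95. Without MS_W75 the log2FC of MS_W vs. MS_O fell from 0.90 to 0.43. Groups of 3 mice are too small for a test of single outlying libraries.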

How the results depend on the processing

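No member passed an adjusted p of 0.05 under any of the alternatives run, and no sign turned among the 6 single-gene differences followed (Cd74 and Bst2 in C_W vs. C_O, Ifit2, Usp18 and Igtp in MS_W vs. MS_O, Igtp in C_W vs. MS_W). Among the counts and medians over the members, 190 alternative values stayed and 30 moved, a count by over 1.5 times or a median by more than 0.147, its SD between replicates. The 89 values of single genes kept their sign and stayed above the adjusted threshold, though the sizes moved, for Usp18 from 0.44 to 1.45 with edgeR. Counts by the DEG criteria moved as follows. In C_W vs. MS_W, 0 became 1 with a pseudocount of 0.1, with DESeq2 and without C_O72 and MS_W95 (Cd74 each time). The backgrounds were 4.71%, 5.11% and 5.81% in that order. The count became 4 in a fit of only the groups compared (the 4 class II genes, background 4.96%). On leaving out 1 library it was 0 to 1, with 1 without C_W1 (Cd74, background 4.31%) or MS_W31 (Ifit2, 5.52%). In C_O vs. MS_O, 0 became 0 to 1 on leaving out 1 library (1 without C_O15, Cd74 lower, background 3.99%). In C_W vs. C_O, 2 became 5 with edgeR or DESeq2 (Bst2 and the 4 class II genes, backgrounds 2.38% and 2.8%). The count became 1 in a fit of only the groups compared (Bst2, background 1.72%) and 0 without C_O72 and MS_W95 (1.64%). On leaving out 1 library it was 0 to 7 (backgrounds from 1.17% to 4.15%). In MS_W vs. MS_O, 2 became 1 with edgeR or DESeq2 (Usp18, backgrounds 2.65% and 3.13%) and with a mean FPKM of at least 1 (Ifit2, 1.12%). The count became 0 in a fit of only the groups compared (2.43%), and 0 to 2 on leaving out 1 library (2.16% to 4.38%). The median log2FC of the members was 0.47 with edgeR and 0.47 with DESeq2 in C_W vs. C_O, and 0.31 and 0.30 in MS_W vs. MS_O. With a pseudocount of 0.1 in the limma fit it was 0.40 and 0.22 in these 2 comparisons. This median lay between -0.16 and 0.12 in C_O vs. MS_O and between -0.26 and 0.017 in the interaction on leaving out 1 library. It was 0.071 in the interaction without C_O72 and MS_W95. The cause of these shifts was not tested. No paired analysis was possible because the mouse numbers are not shared between the groups. With 3 mice per group, single mice such as MS_O78 and C_O72 moved the counts and medians, and the least abundant members rest on few counts.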
